A study of Saccharomyces cerevisiae with 12 samples.

Results

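Gene expression was compared between 2 strains of budding yeast, Saccharomyces cerevisiae, that had both been exposed to poacic acid, a plant-derived stilbenoid that binds the glucan of the yeast cell wall. The members of the comparison were 6 of the 12 RNA-seq libraries of the series: 3 of wild type and 3 of slt2, all of the BY4741 background and all taken after 1 h with 100 µg/ml of the compound. BY4741 is a haploid laboratory strain of mating type a that carries deletions of HIS3, LEU2, MET17 and URA3, and slt2 also lacks SLT2. Whether the slt2 samples came from 1 isolate is not stated. The other 6 libraries were the same strains without the compound (3 each), and they are used here to set the untreated strain difference beside the treated one. Per the labels the libraries of a group are separate biological samples, each strain is represented by 3 of them, and each was used without and with the compound. Of 7126 listed genes, 6139 reached 1 RPKM (reads per gene length and per library size) in at least 3 of the 6 treated libraries and were tested.

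SLT2 encodes the MAP kinase at the end of the cell wall integrity pathway. Sensors in the plasma membrane (the Wsc proteins, Mid2 and Mtl1) register wall stress and, through the exchange factors Rom1 and Rom2, load the GTPase Rho1, which activates the kinase Pkc1. Pkc1 passes the signal along Bck1 and the paired kinases Mkk1 and Mkk2 to Slt2, and Slt2 phosphorylates the transcription factors Rlm1 and SBF (Swi4 with Swi6). Rlm1 drives genes of wall proteins and of glucan and chitin synthesis, while the phosphatases Ptp2, Ptp3, Msg5 and Sdp1 switch Slt2 off. The calcium-activated phosphatase calcineurin with its factor Crz1, the osmotic HOG pathway and the general stress factors Msn2 and Msn4 are other routes by which yeast answers wall damage.

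The libraries held 3462651 to 10542487 reads by the step size of the RPKM values, of which 72.2 to 79.6% lay in listed genes. A count of 3 reads in a gene of 1 kb corresponded to 0.285 to 0.866 RPKM. SLT2 (R64 chrVIII:168890-170344, minus strand) read 194, 199 and 236 RPKM in treated wild type, from 1537, 3059 and 2456 reads, and 0, 0.199 and 0.145 RPKM in treated slt2, from 0, 1 and 1 reads. The libraries therefore stood with their strain labels at the deleted gene. The nearest listed genes on either side, DAP2, YHI9, RRM3 and ERC1, had adjusted p of 0.911, 0.198, 0.954 and 0.553 in the treated strain difference. LEU2 had 0 reads in every library, MET17 had 0 in the treated libraries, and URA3 had 4 reads in treated slt2 replicate 1 and 0 in the other treated libraries, while HIS3, deleted only in part, checks nothing (39.1 to 70.4 RPKM). The a-cell receptor gene STE2 read 107 to 269 RPKM and the alpha-cell receptor gene STE3 0.649 to 2.02 RPKM. Reads of ribosomal RNA moved with strain: they took 2.67, 0.106 and 5.16% of the reads in listed genes in treated wild type against 6.31, 5.99 and 6.23% in treated slt2. Without the compound they took 0.74, 0.09 and 0.37% in wild type against 4.88, 6.67 and 5.25% in slt2. Treated wild type replicate 3 also stood apart from its group on the leading principal component (−7.13, against −22.5 and −29.1) and on the next (24.1, against 3.48 and −16.9). For that reason list counts are set beside those with the rRNA share as a covariate, and beside the range over the fits that leave out 1 treated library, where either moved a count by over 1.5 times. Since the share lay largely with strain, the covariate also takes up part of the strain difference. Where a call was lost with it, strain and rRNA share cannot be told apart. The part of the rRNA share in the strain differences was not tested beyond that.

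Of the genes tested, 511 (8.32%) differed between treated slt2 and treated wild type at an adjusted p under 0.05, with 248 higher in slt2 (4.04%) and 263 lower (4.28%). Adjusted p values are those of limma on log2(RPKM + 1) with Benjamini-Hochberg adjustment over the 6139 genes throughout, and differences are log2 values on that scale, slt2 minus wild type, with 95% intervals in brackets. They understate the change of genes with low values. At least 2-fold differences numbered 123 higher and 101 lower, and 1417 genes had an unadjusted p under 0.05. For 1424 genes (23.2%) the values of the 2 groups did not overlap, and 507 of the 511 called genes were among them. With the rRNA share as a covariate 183 genes were called (79 higher, 104 lower), 166 of them among the 511. Without treated wild type replicate 3 the count was 880, which held 472 of the 511, and without slt2 replicate 1 or 2 it was 329 or 335. The same strains differed at 108 genes (1.76%) without the compound. That count rested on the settings: it was 1 with the rRNA share as a covariate, 609 or 499 without treated wild type replicate 3 or 2 (although it compares untreated libraries), 60 without slt2 replicate 2 and 1160 with library weights. A gene not called in untreated cells is therefore not shown to be equal there. At 107 genes (1.74%) the treated strain difference itself differed from the untreated one, in a fit that ignores that a treated and an untreated library came from the same sample. A replicate block by culture, which takes up that pairing, gave 199, and its adjusted p stands below beside the differences it moved past the threshold, where these are discussed. Of the 511 called genes, 30 were called in the same direction in untreated cells, 1 (MHT1) in the opposite direction and 480 were not called there. The difference of the strain differences was called for 99 of the 511, 40 higher and 59 lower. Median-of-ratios scaling moved the split from 48.5% to 58.4% higher.

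**Figure D1:**
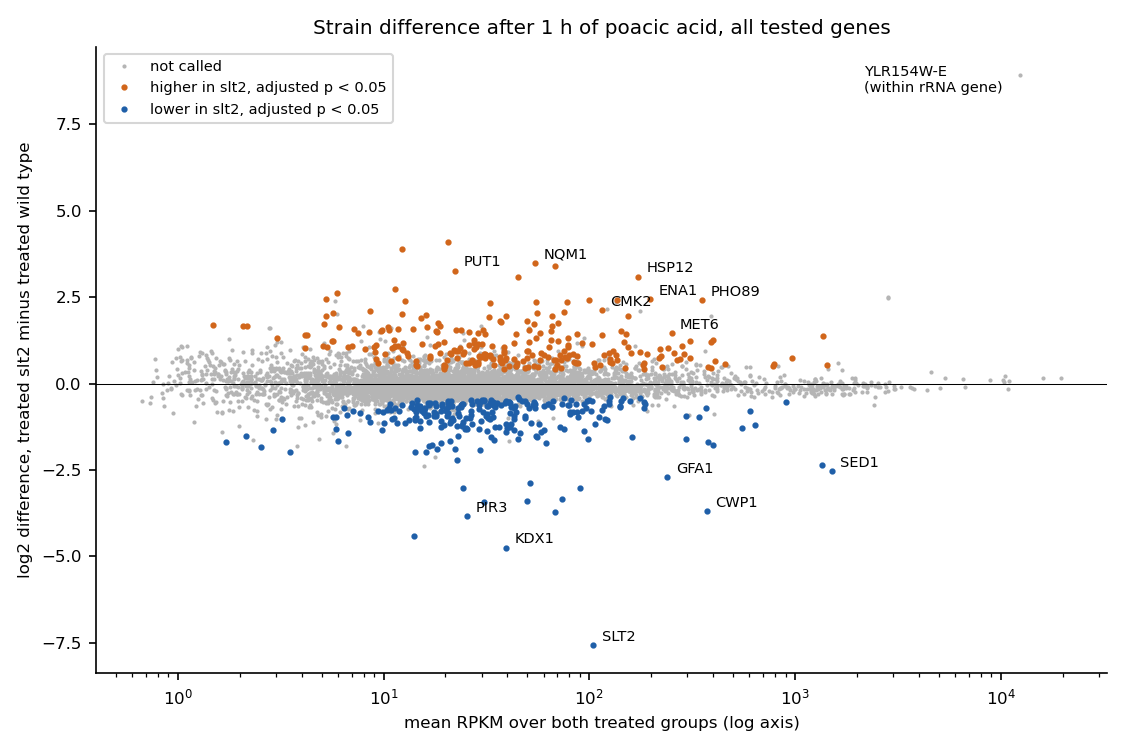
Log2 difference between treated slt2 and treated wild type (vertical axis) against mean RPKM over both groups (horizontal log axis), 1 point for each of the 6139 tested genes, coloured where the adjusted p was under 0.05. The 248 genes called above and the 263 called below 0 lie at low and at high levels alike, SLT2 lies lowest, and the grey point at the upper right is YLR154W-E, an open reading frame within the ribosomal RNA genes.

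The DNA upstream of the genes that were lower in slt2 held the binding motif of Rlm1 more often than that of other genes. The Rlm1 consensus, searched on both strands in the 500 bases before each start codon of the R64 reference, matched 104 of 6119 such windows (1.7%). Among called genes it was present before 31 of the 263 lower (11.8%), 19 of the 101 that were at least 2-fold lower (18.8%), 2 of the 248 higher (0.806%) and 71 of the 5608 not called (1.27%). These are counts of letter matches and show neither binding nor use of a site. Of the 23 known targets of Slt2 and Rlm1 that are described below, 7 (30.4%) had a match. The following sites belong to target-list or ranked genes that were lower in slt2 and had a match. They are shown with the match in capitals and 10 bases on each side, read 5′ to 3′ on the strand of the gene.

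PIR3 (chrXI:144111-144140, plus strand): gattagcaaaCTAATTATAGatcaaaggcc
CWP1 (chrXI:260736-260765, plus strand): tacgtcataaCTAAAAATAGcgttagccac
CRG1 (chrVIII:519282-519311, plus strand): tttccacgatCTATATTTAGcattctaatt
PST1 (chrIV:563212-563241, plus strand): ttacgagtctCTAAAAATAGcgtaggcaca
SED1 (chrIV:600303-600332, plus strand): gcatatatcgCTAAAATTAGccatcagaac
HSP150 (chrX:120216-120245, plus strand): acattttgagCTAAATTTAGattttggtca
PTP2 (chrXV:733873-733902, plus strand): atccccagtgCTATTAATAGtttacaataa
RLM1 (chrXVI:381439-381468, minus strand): gagatgaaagCTAATAATAGaaacagctcg

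The central bases, which the consensus leaves as A or T, differ between most of these sites, while PST1 and CWP1 share the whole match. The element lies at different distances from the start codon, from 33 to 42 bases before it in PTP2 to 471 to 480 bases before it in SED1. KDX1, SRL3, PRM5, GFA1, PIR1 and YKL102C, which are described below, had no match in this window, which says only that these letters are not there. A longer stretch, from 300 to 121 bases before the start codon, is given for 2 genes of the same wall protein family, PIR3 and HSP150, with the Rlm1 match in capitals.

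PIR3 (chrXI:144101-144280, plus strand): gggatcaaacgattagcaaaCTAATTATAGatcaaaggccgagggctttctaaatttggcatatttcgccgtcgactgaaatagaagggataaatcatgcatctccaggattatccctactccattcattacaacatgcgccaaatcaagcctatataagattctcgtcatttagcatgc
HSP150 (chrX:120149-120328, plus strand): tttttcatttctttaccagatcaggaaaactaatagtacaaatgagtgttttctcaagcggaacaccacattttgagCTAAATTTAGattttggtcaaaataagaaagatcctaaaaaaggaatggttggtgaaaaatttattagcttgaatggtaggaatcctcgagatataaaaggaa

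Other motifs were searched in the same windows and on both strands. The stress response element AGGGG, the site of Msn2 and Msn4, matched 33.9% of all windows, 52.8% of those of genes higher in slt2 (131 of 248), 62.6% of those at least 2-fold higher (77 of 123) and 29.3% of those lower (77 of 263). The E-box CACGTG, bound by Cbf1 at sulfur genes, matched 6.14% of all windows and 11.3% of those of higher genes (28 of 248). AAACTGTGG, the site of Met31 and Met32, matched 0.833% of all windows, 4.84% of higher ones (12 of 248) and none of the 263 lower ones. The Crz1 site, searched as GNGGCTCA or GNGGCGCA, matched 3.76% of all windows, 11.3% of higher ones (28 of 248) and 4.18% of lower ones. The 2 windows below show the stress element before NQM1, the gene of a transaldolase that was among the largest differences upward, and the E-box before MET14, the gene of adenylylsulfate kinase, over the same stretch from 300 to 121 bases before the start codon.

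NQM1 (chrVII:581557-581736, minus strand): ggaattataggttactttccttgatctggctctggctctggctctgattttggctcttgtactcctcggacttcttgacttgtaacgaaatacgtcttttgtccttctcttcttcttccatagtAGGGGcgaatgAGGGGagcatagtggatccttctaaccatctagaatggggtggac
MET14 (chrXI:439506-439685, minus strand): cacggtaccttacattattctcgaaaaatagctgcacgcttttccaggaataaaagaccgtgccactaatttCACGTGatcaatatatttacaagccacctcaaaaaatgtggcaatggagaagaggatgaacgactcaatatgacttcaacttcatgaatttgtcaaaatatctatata

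**Figure D2:**
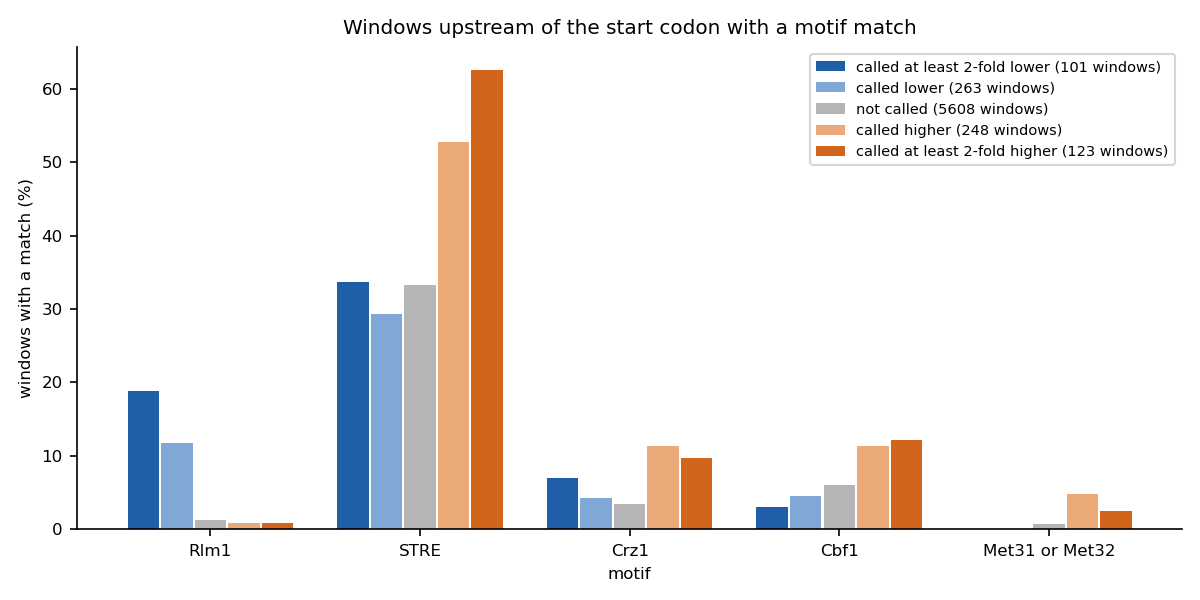
Share of upstream windows (%) with at least 1 match to each motif, for genes called lower or higher in treated slt2, the subsets that differed at least 2-fold, and genes not called. The Rlm1 bars are highest for genes lower in slt2 (11.8 and 18.8%) and the STRE bars for genes higher in slt2 (52.8 and 62.6%).

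Known targets of Slt2 and Rlm1 held many of the largest differences downward, but YKL102C, CRG1, YPL088W and YNL057W were not among these targets. Of 23 tested targets, 16 were lower in treated slt2 and 3 were higher, with a median log2 difference of −1.70 against −0.07 over all tested genes. In untreated cells 7 of the 23 were lower and none was higher (median −0.29). The difference of the strain differences was called for 15 of the 23, in 14 of them downward, and for 17 (15 downward) with the culture block. The list was compiled from targets of this pathway with earlier results of these data known, so its direction is not independent evidence. With the rRNA share as a covariate 18 were lower and 2 higher.

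KDX1, the gene of a pseudokinase paralogous to Slt2 (chrXI:149386-150687, minus strand), read 65.5, 96.5 and 68.4 RPKM in wild type and 1.20, 2.44 and 2.10 RPKM in slt2. This was the largest fitted difference of the ranked genes, −4.74 (−5.22 to −4.26, adjusted p = 1.66e-08), and the groups lay far apart. Without the compound KDX1 read 4.94 ± 0.78 RPKM in wild type and 2.03 ± 0.46 in slt2 (mean ± SD, n = 3 each), so the strains differed less there (−0.98, adjusted p = 0.0438). PIR3, the gene of a wall protein linked covalently to glucan (chrXI:144401-145378, plus strand), read 42.4, 30.8 and 72.1 RPKM in wild type and 2.39, 4.43 and 0.860 RPKM in slt2 (−3.84, −4.63 to −3.05, adjusted p = 1.36e-05). Its untreated strain difference was −0.29 (adjusted p = 0.65), and the 2 differences differed (adjusted p = 0.00218). Other members of the same family varied. HSP150 (also called PIR2) read 2475, 1586 and 2733 RPKM against 489, 442 and 371 RPKM (−2.35, adjusted p = 2.11e-06). PIR1 read 626, 437 and 683 RPKM against 188, 176 and 163 RPKM (−1.70, adjusted p = 4.73e-06). CIS3 (also called PIR4) overlapped between the strains, at 666, 458 and 786 RPKM against 474, 553 and 578 RPKM, a difference of −0.22 (−0.59 to 0.15, adjusted p = 0.482).

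Several genes of wall proteins anchored through a glycolipid were lower as well, SED1, CWP1, PST1 and CCW14 among them. SED1, which encodes a major structural wall protein (chrIV:600793-601809, plus strand), read 3038, 1787 and 2904 RPKM in wild type and 507, 488 and 333 RPKM in slt2 (−2.52, adjusted p = 4.85e-06). CWP1 (chrXI:261132-261851, plus strand) read 785, 526 and 762 RPKM against 44.8, 44.9 and 70.7 RPKM (−3.68, −4.45 to −2.90, adjusted p = 3.64e-05). Unlike PIR3, CWP1 already differed without the compound, at 115 ± 28 RPKM in wild type and 17.3 ± 11 in slt2 (−2.80, adjusted p = 0.00785), and its 2 strain differences were not called different (−0.88, adjusted p = 0.552, and 0.365 with the culture block). PST1 read 116, 134 and 152 RPKM against 15.9, 15.4 and 7.56 RPKM (−3.33, adjusted p = 1.11e-06), with an untreated difference of −0.54 (adjusted p = 0.174). Over the whole list of structural wall proteins, 7 of 21 tested members were lower (CWP1, SED1, PST1, PIR1, HSP150, PIR3 and CCW14) and 1 was higher, SPI1, a stationary-phase wall protein gene that read 10.2, 8.70 and 16.2 RPKM in wild type and 41.9, 39.4 and 25.9 RPKM in slt2 (1.54, adjusted p = 0.000708). The other 13 did not pass, among them CCW12 (0.09), CWP2 (−0.62) and the cold-shock gene TIR1 (0.52), and the list's median was −0.22. DAN1 did not reach the level for testing, and with the rRNA share as a covariate 8 were lower and none was higher.

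The ranked genes lower in slt2 included several whose products have no wall role by name. SRL3, a relative of the cell cycle repressor gene WHI5, read 112, 100 and 171 RPKM in wild type and 7.37, 6.24 and 13.3 RPKM in slt2 (−3.72, adjusted p = 1.04e-06). CRG1, the gene of a methyltransferase that protects against cantharidin, read 46.4, 72.5 and 51.0 RPKM against 6.53, 6.26 and 1.68 RPKM (−3.42, adjusted p = 3.62e-05). PRM5, the gene of a membrane protein known as a wall stress reporter, read 127, 201 and 156 RPKM against 15.5, 16.9 and 24.0 RPKM (−3.03, adjusted p = 4.48e-06). In each of these the 3 slt2 libraries lay below every wild-type library, as the ranking required. YKL102C, an open reading frame of unknown function, had 46 to 76 reads per library in wild type (27.6, 21.1 and 34.7 RPKM) and 0 or 1 in slt2 (0.425, 0 and 0.687 RPKM), so its fitted difference of −4.40 depends on the pseudocount. YNL057W and YNL058C overlap and can share reads, since it is not stated whether reads were counted by strand. They read 29.1 to 53.9 against 3.47 to 5.05 RPKM (−3.04) and 84.8 to 97.8 against 10.5 to 13.5 RPKM (−2.87). YPL088W read 79.6, 86.7 and 107 RPKM against 9.98, 9.82 and 4.5 RPKM (−3.40, adjusted p = 1.11e-06).

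**Figure D3:**
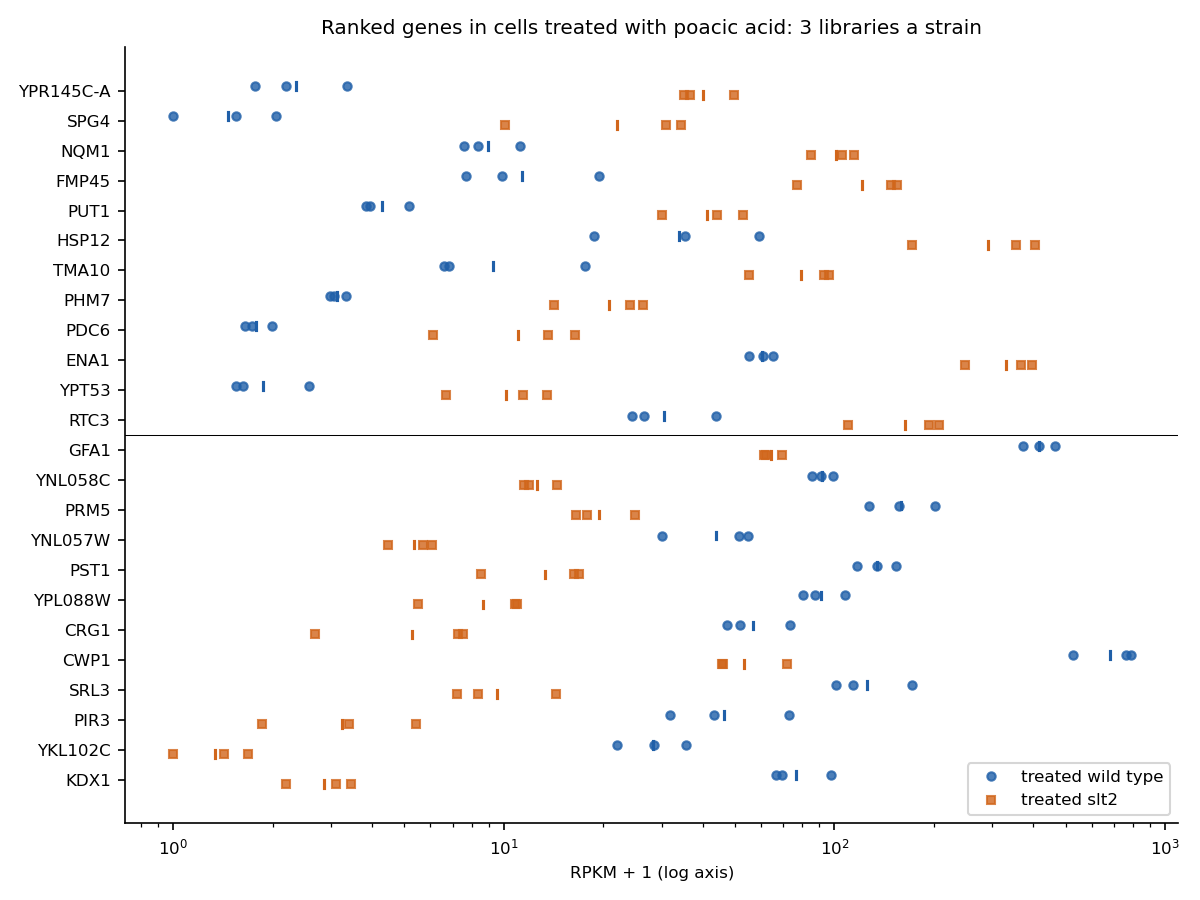
RPKM + 1 on a log axis in the 3 treated wild-type (circles) and 3 treated slt2 libraries (squares) for the 12 largest differences in each direction, with short bars at the mean of the log values. The groups did not overlap in any of the 24 genes, as the ranking required, and slt2 replicate 3 was the lowest slt2 library in 11 of the 12 genes above the line.

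The 3 targets that were higher in slt2 were GSC2, YPS1 and PUN1. GSC2 (also called FKS2), the gene of the stress-induced catalytic subunit of glucan synthase (chrVII:548264-553951, plus strand), read 23.0, 29.8 and 44.6 RPKM in wild type and 98.7, 120 and 108 RPKM in slt2 (1.76, 1.36 to 2.16, adjusted p = 2.96e-05). GSC2 is also a known target of calcineurin and Crz1. YPS1, the gene of a yapsin, a protease of the cell surface, read 110, 152 and 180 RPKM against 303, 310 and 264 RPKM (1.01, adjusted p = 0.0019, 0.115 with the rRNA share as a covariate). PUN1, the gene of a plasma membrane protein of the SUR7 family, read 60.9, 92.5 and 92.2 RPKM against 221, 256 and 184 RPKM (1.43, adjusted p = 0.000197), and its strain difference was larger with than without the compound by 1.26 (adjusted p = 0.0245). The 4 targets that did not pass were CIS3, YLR194C (−0.66, adjusted p = 0.226), YPS3 (−0.66, adjusted p = 0.0883) and YMR295C (−0.12, adjusted p = 0.588).

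Upstream of Slt2 pathway genes were called about as seldom as all tested genes, of which 8.32% were called. WSC2, a sensor gene, was the only one of the 14 tested genes of the sensor and Rho1 module that passed, at 72.2, 81.2 and 98.0 RPKM in wild type and 126, 147 and 110 RPKM in slt2 (0.60, adjusted p = 0.0167), and the call was lost with the rRNA share as a covariate (adjusted p = 0.274) and without single libraries (up to 0.096). The module's median was −0.05. The kinase genes above Slt2 were not called: BCK1 differed by −0.12 (−0.37 to 0.14), MKK1 by −0.19 (−0.45 to 0.07) and MKK2 by −0.05 (−0.39 to 0.29). Of the genes at or downstream of the Slt2 step, RLM1, PTP2, MSG5 and SWI4 were lower. RLM1 itself (chrXVI:379120-381150, minus strand) read 72.4, 53.9 and 77.7 RPKM in wild type and 25.5, 22.9 and 24.8 RPKM in slt2 (−1.43, adjusted p = 4.03e-05). The phosphatase gene PTP2 read 25, 36 and 28.1 RPKM against 8.54, 8.59 and 7.47 RPKM (−1.73, adjusted p = 1.8e-05). The phosphatase gene MSG5 read 47.5, 58.1 and 65.1 RPKM against 21.5, 24.8 and 21.9 RPKM (−1.28, adjusted p = 3.03e-05). SWI4 passed narrowly (−0.76, adjusted p = 0.0437), and its call was lost in 11 alternatives, among them the rRNA share as a covariate (adjusted p = 0.791) and each fit that left out a treated library other than wild type replicate 3 (up to 0.157). These made 4 of 10 in the list of cascade, factor and phosphatase genes, with none higher and a median of −0.15, while SWI6 (0.05), PTP3 (0.17) and SDP1 (0.39) did not pass. For RLM1 and MSG5 the treated difference was larger than the untreated one (adjusted p = 0.0135 and 0.00477), and for PTP2, already lower without the compound (−0.78, adjusted p = 0.0408), that test gave 0.0771, or 0.0295 with the culture block.

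Chitin synthesis genes were lower at 7 of 14 members, among them genes of precursor supply and of chitin synthase III. GFA1, which encodes the first enzyme of the hexosamine route to chitin (chrXI:243220-245373, minus strand), read 416, 463 and 370 RPKM in wild type and 60.9, 60.3 and 68.7 RPKM in slt2 (−2.69, −2.94 to −2.45, adjusted p = 5.68e-09). PCM1, the gene of a later enzyme of the same route, read 255, 215 and 249 RPKM against 84.2, 82.1 and 78.4 RPKM (−1.54, adjusted p = 1.11e-06). CHS3, the catalytic subunit gene of chitin synthase III (chrII:284428-287925, minus strand), read 104, 122 and 96.9 RPKM against 40.9, 43.6 and 42.5 RPKM (−1.32, adjusted p = 4.48e-06). The slt2 libraries lay below all wild-type libraries at each of them, with little spread among themselves. A lack of overlap was common to 507 of the 511 called genes. CHS7, whose product lets Chs3 leave the endoplasmic reticulum, was lower (−1.40, adjusted p = 5.34e-06), as were CHS6 (−1.06), SKT5 (−0.86) and CHS1 (−0.60). These were the 7, none was higher, and the median was −0.49. CHS1 (adjusted p = 0.0242) lost its call in 5 alternatives (up to 0.257, and up to 0.0816 without a single library), and the others lost theirs in none. CHS2, the septum synthase gene (−0.38), GNA1 (0.21) and QRI1 (−0.21), the other genes of the hexosamine route, did not pass. Without the compound GFA1 was the 1 member called lower (−0.72, adjusted p = 0.0192), and for GFA1, PCM1, CHS3 and CHS7 the treated difference was the larger one (adjusted p = 3.34e-05, 0.000747, 0.0122 and 0.00218), as it was for CHS6 with the culture block (0.072 without it, 0.0346 with it).

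Glucan synthesis and remodelling genes were mixed. FKS1, the gene of the main glucan synthase subunit, read 489, 370 and 516 RPKM in wild type and 253, 307 and 282 RPKM in slt2 (−0.69, adjusted p = 0.00819), opposite in direction to GSC2. Of 15 glucan synthesis genes, FKS1, SKN1 (−1.01, adjusted p = 0.00217), KNH1 (−1.14, adjusted p = 0.0418) and ROT1 (−0.60, adjusted p = 0.0134) were lower, GSC2 and KRE1 (0.43, adjusted p = 0.048) were higher, and the median was −0.21. Leaving out a library gave 2 to 4 lower and 1 or 2 higher, and the covariate 3 and 1. KNH1 and KRE1 each lost the call in 11 alternatives (adjusted p up to 0.229 and 0.609) and ROT1 in 3 (up to 0.0717). FKS1, SKN1 and GSC2 kept theirs in every alternative. Among 21 remodelling genes 7 were lower and 1 was higher, with a median of −0.04. EXG1, the gene of the main exo-glucanase (chrXII:728955-730301, plus strand), read 539, 663 and 641 RPKM against 198, 200 and 143 RPKM (−1.77, adjusted p = 4.48e-06). BGL2, an endo-glucanase gene, read 704, 858 and 802 RPKM against 280, 347 and 343 RPKM (−1.28, adjusted p = 2.96e-05). EXG2 (−1.25), DFG5 (−1.16) and GAS5 (−0.65) were lower too, and SCW10 was higher (0.48, adjusted p = 0.0408), a call lost with the covariate and in each fit that left out a treated library other than wild type replicate 3. The transglycosylases that join chitin to glucan differed among themselves. CRH1 (chrVII:876669-878192, minus strand) read 391, 387 and 564 RPKM against 145, 158 and 132 RPKM (−1.60, adjusted p = 5.8e-06), with a treated difference larger than the untreated one (adjusted p = 0.00641). UTR2 read 375, 405 and 391 RPKM against 198, 218 and 194 RPKM (−0.94, adjusted p = 4.03e-05) and was lower without the compound too (−0.54, adjusted p = 0.0312). CRR1, a sporulation gene, overlapped between strains at 13.6 to 17.2 and 15 to 17.2 RPKM (0.04, −0.27 to 0.36, adjusted p = 0.896). GAS1, the main glucan elongase gene, read 767, 943 and 798 against 649, 706 and 769 RPKM (−0.24, −0.50 to 0.02, adjusted p = 0.266).

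Genes of daughter cell separation, which are expressed in daughters at the end of mitosis, were lower at 6 of 10 members with none higher, and the median was −0.83. EGT2 read 82.0, 70.1 and 63.0 RPKM in wild type and 29.2, 36.9 and 30.7 RPKM in slt2 (−1.13, adjusted p = 6.87e-05). ASH1, the repressor of HO in daughters, read 50.9, 35.5 and 36.6 RPKM against 17.9, 16.3 and 21.4 RPKM (−1.09, adjusted p = 0.000299). AMN1 (−1.33), the glucanase genes DSE4 (−1.23) and SCW11 (−0.75) and DSE1 (−0.91) were the other 4. The chitinase gene CTS1 did not pass (−0.29, −0.58 to 0.01). In untreated cells none of the 10 was called, and with the rRNA share as a covariate 3 were lower. In the difference of the strain differences none was called, but with the culture block AMN1, ASH1, DSE4 and EGT2 were (adjusted p = 0.0462, 0.0357, 0.0314 and 0.0405, against 0.0742 to 0.0899 without it). Some cell cycle genes were called beside them. Of 14 mitotic genes PCL9 (31.9, 25.6 and 22.4 against 6.82, 6 and 7.59 RPKM, −1.81, adjusted p = 1.58e-05), SIC1 (−0.98), CDC20 (−0.94), KIN3 (−0.82) and HOF1 (−0.63) were lower and none was higher (median −0.44). That count was 8 without treated wild type replicate 3, 3 without slt2 replicate 1 or 2, and 3 with the covariate, which turned the list's median to 0.04. Among 20 G1/S genes HO (−1.31, adjusted p = 0.000264) and CLN2 (−0.44, adjusted p = 0.0193) were lower (median −0.26). Without treated wild type replicate 3 this was 6 lower and 2 higher, and with the covariate 1 lower, since CLN2 lost its call there (0.294), with the 6 treated libraries alone (0.0819) and without wild type replicate 1 or slt2 replicate 2 (up to 0.0799). Of 10 histone genes HTA2 (0.75) and HHF2 (0.58) were higher (median 0.47), or none with the covariate and 1 to 3 without a library. The histone genes come in near-identical copies, so these values are uncertain. In bulk samples fewer cells in a cell cycle stage and less RNA per cell cannot be told apart.

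The yapsin genes split. YPS6 was lower (7.61, 10.9 and 10.3 against 3.06, 1.79 and 2.22 RPKM, −1.66, adjusted p = 0.00103, 0.0578 with the rRNA share as a covariate), as was YPS7 (−0.65, adjusted p = 0.00217), YPS1 was higher as given above, and MKC7 (−0.20) and YPS3 did not pass, for a median of −0.65 over 5 genes.

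Calcineurin targets were higher in slt2. Of 7 tested targets 6 were higher and none was lower, with a median of 1.76, and in untreated cells none was called (median 0.31). ENA1, which encodes a sodium-exporting ATPase (chrIV:535192-538467, minus strand), read 54.0, 59.7 and 64.2 RPKM in wild type and 366, 396 and 247 RPKM in slt2 (2.46, 2.00 to 2.91, adjusted p = 4.99e-06). ENA1 has near-identical tandem copies, and how reads with several matches were counted is not stated. CMK2, a calmodulin-dependent kinase gene (chrXV:294777-296120, minus strand), read 40.6, 43.3 and 43.9 RPKM against 199, 188 and 179 RPKM (2.12, adjusted p = 4.99e-06). RCN1, the gene of a calcineurin regulator, read 19.9, 17 and 29 RPKM against 82.2, 84.9 and 67.5 RPKM (1.81, adjusted p = 1.58e-05). Each slt2 value was well above each wild-type value for these 3 genes, a lack of overlap shared by 507 of the 511 called genes. Their treated differences were larger than the untreated ones (adjusted p = 0.00218, 0.00323 and 0.00323). The culture block added GSC2 (0.0894 without it, 0.045 with it) and RCN2 (0.0912 and 0.045). GSC2, RCN2 (1.31, adjusted p = 0.000459) and the vacuolar calcium pump gene PMC1 (0.77, adjusted p = 0.0103) were the other 3, and the Golgi pump gene PMR1 did not pass (0.36, 0.02 to 0.71, adjusted p = 0.191). With the rRNA share as a covariate 5 of the 7 were higher. Among the genes of the calcium channel and of calcineurin itself, CRZ1 was higher (15.6, 19.98 and 14.7 against 30.8, 29.4 and 25.5 RPKM, 0.74, adjusted p = 0.0103), while the channel genes CCH1 (−0.49) and ECM7 (−1.05) and the calmodulin gene CMD1 (−0.50) were lower. The calls for CCH1 and CMD1 were lost with the covariate (adjusted p = 0.545 and 0.476) and without single libraries (up to 0.167 and 0.163), while ECM7 kept its call in every alternative (up to 0.0492) and CRZ1 lost its own without slt2 replicate 1 (0.0552). The median of those 8 genes was −0.39, and ECM7 overlaps a further listed gene. Of 7 target windows 1 held the Crz1 motif as searched here, that of PMC1.

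**Figure D4:**
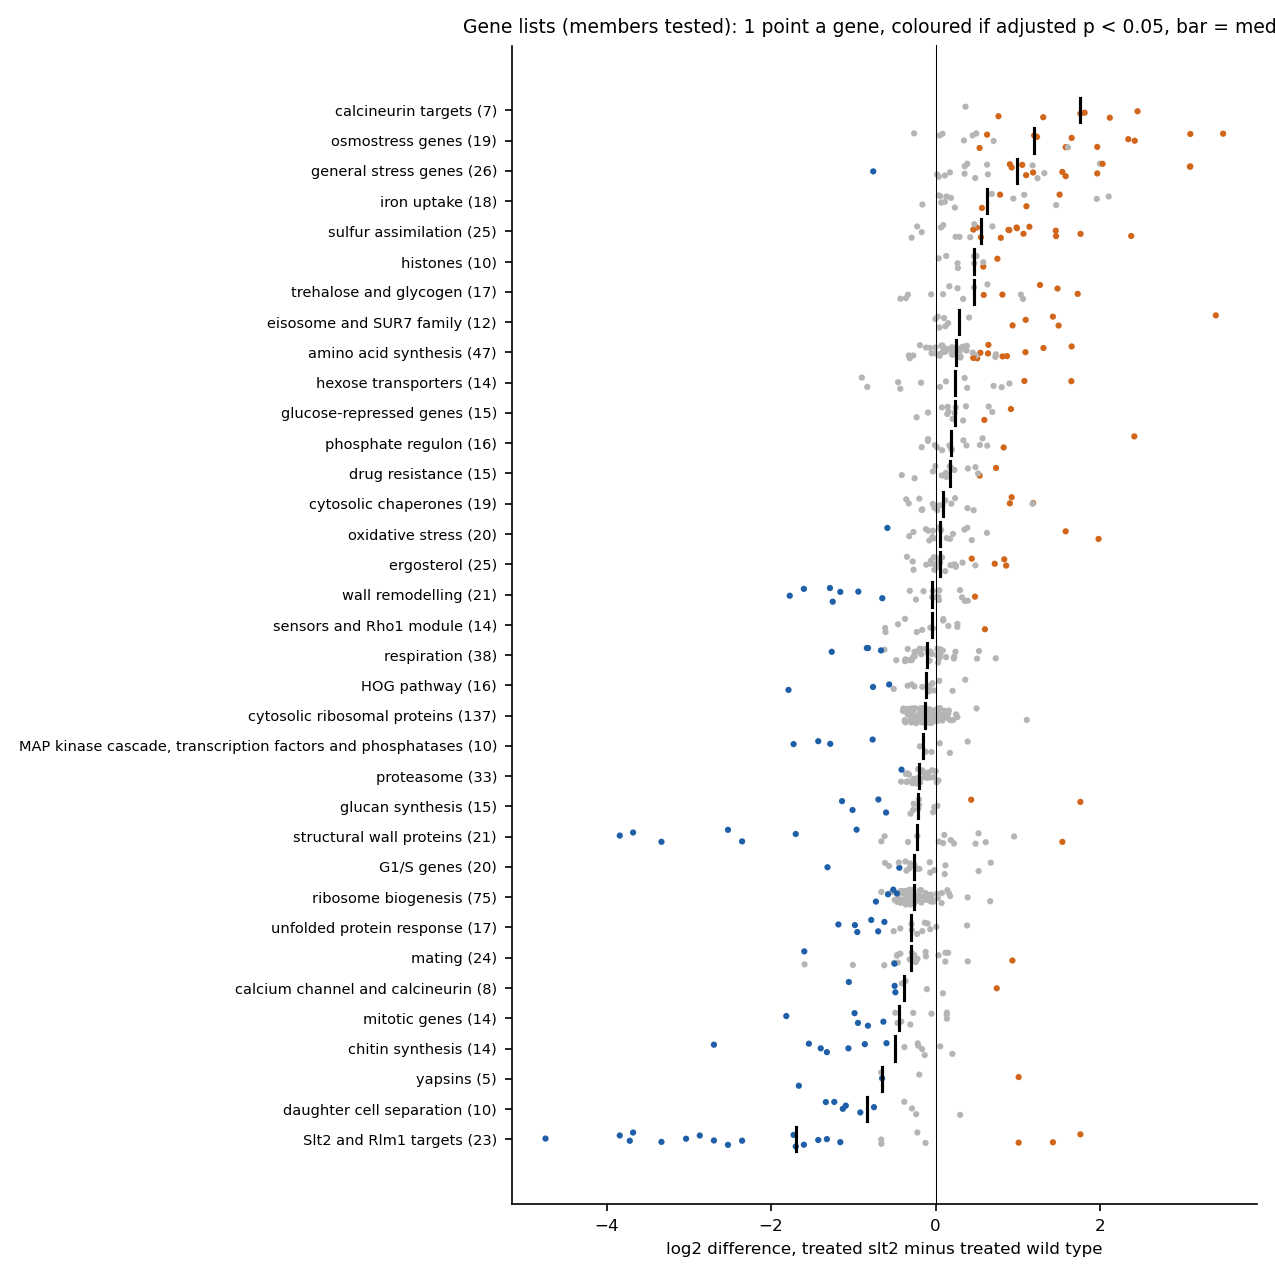
Log2 difference between treated slt2 and treated wild type for each tested member of the 35 gene lists (1 point a gene, orange higher and blue lower at an adjusted p under 0.05, grey not called), with a black bar at each list's median and the number tested in brackets. Slt2 and Rlm1 targets lie lowest (median −1.70) and calcineurin targets highest (1.76).

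Part of the genes that yeast raises under osmotic and general stress were higher in slt2. The lists of these genes share members, HSP12 and CTT1 among them, so their counts are not separate. Of 19 osmostress genes 11 were higher and none was lower, with a median of 1.20. None was called without the compound (median 0.28). The difference of the strain differences was called for only 4 of the 19, all upward, and for 6 with the culture block. NQM1 (chrVII:580435-581436, minus strand) read 6.58, 10.2 and 7.38 RPKM in wild type and 114, 104 and 84.0 RPKM in slt2 (3.5, 2.82 to 4.17, adjusted p = 7.09e-06). ALD3, an aldehyde dehydrogenase gene, read 7.23, 9.54 and 8.54 RPKM against 31.0, 34.4 and 21.9 RPKM (1.66, adjusted p = 3.11e-05). GPD1, the first enzyme gene of glycerol synthesis, read 222, 219 and 262 RPKM against 598, 603 and 434 RPKM (1.20, adjusted p = 0.00237), and GPP1, the next enzyme's gene, 1098, 1011 and 1388 RPKM against 1836, 1767 and 1451 RPKM (0.54, adjusted p = 0.0388). The groups of GPP1 came close, since its lowest slt2 library was replicate 3. GPP1 lost its call in 8 alternatives (adjusted p up to 0.6, and up to 0.158 without a single library). GPD1 lost its own in 1 (adjusted p up to 0.164). The glycerol importer gene STL1 did not pass (0.45). GRE1 (2.35), RTC3 (2.42), HOR7 (1.97), CTT1 (1.58), TFS1 (1.24), GRE2 (0.63) and HSP12 were the other higher members. With the rRNA share as a covariate 5 were higher, and 7 to 11 when a library was left out. Of the HOG pathway itself, 3 of 16 genes were lower and none was higher (median −0.12). SSK22, a kinase gene of the Sln1 branch (chrIII:242588-246583, minus strand), read 22.5, 29.4 and 29.5 RPKM against 6.80, 7.59 and 6.90 RPKM (−1.79, adjusted p = 4.48e-06). The MAP kinase gene HOG1 read 140, 155 and 141 RPKM against 83.5, 81.5 and 91.5 RPKM (−0.76, adjusted p = 0.000446). YPD1 was lower too (−0.56, adjusted p = 0.0167). Its call was lost without single libraries (up to 0.0779), with the rRNA share as a covariate (0.411) and with the 6 treated libraries alone (0.0579).

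Of 26 general stress genes 11 were higher and 1, the transcription factor gene MSN4, was lower (−0.76, adjusted p = 0.0445), with a median of 0.99, and 24 of the 26 windows held the stress element. The call for MSN4 was lost in 10 alternatives (adjusted p up to 0.669, and up to 0.158 without a single library). HSP12, the gene of a small membrane-protecting heat shock protein (chrVI:107256-107585, plus strand), read 17.8, 34.2 and 58.0 RPKM in wild type and 403, 353 and 171 RPKM in slt2 (3.10, 1.57 to 4.63, adjusted p = 0.0199). Its groups did not overlap, but they spread widely. The call for HSP12 was lost without a single library (adjusted p up to 0.0886) and with the rRNA share as a covariate (0.305). MSC1 read 16.6, 24.2 and 21.4 RPKM against 111, 106 and 55.7 RPKM (2.03, adjusted p = 0.000134). CTT1, the cytosolic catalase gene, read 5.42, 5.73 and 4.79 RPKM against 18.3, 21.4 and 14.6 RPKM (1.58, adjusted p = 0.000193). In all 3 genes slt2 replicate 3 was the lowest slt2 library. DDR2 had a difference of 2.00 but did not pass (0, 3.57 and 1.5 against 12.6, 15.5 and 2.26 RPKM, adjusted p = 0.079). Of the 26 general stress genes, 1 was called in the difference of the strain differences, or 3 with the culture block, all upward. The count of members higher in treated slt2 was 3 with the rRNA share as a covariate and ranged from 6 to 17 when a library was left out. Trehalose and glycogen genes were higher at 5 of 17 (TSL1, 1.73; GPH1, 1.48; GLC3, 1.27; TPS2, 0.81; UGP1, 0.59) with none lower and a median of 0.47, and this count was 1 with that covariate and 2 to 9 when a library was left out. Chaperone genes were higher at 3 of 19 (HSP104, HSP26 and SSA4, 0.90 to 1.19, median 0.09) and at none with it, at 1 without slt2 replicate 1 or 2, and 2 were lower without treated wild type replicate 3. Among 20 oxidative stress genes TSA2 (3.41, 8.67 and 5.43 against 27.5, 37.1 and 14.6 RPKM, 1.98, adjusted p = 0.00152) and CTT1 were higher and CCP1 was lower (−0.59, lost with the covariate at 0.203 and without wild type replicate 1 at 0.0599), with a median of 0.06. Of 12 eisosome and SUR7 family genes, which shape furrows of the plasma membrane, 5 were higher: FMP45 (6.70, 8.87 and 18.5 against 154, 148 and 76.2 RPKM, 3.41, adjusted p = 7.1e-05), YNL194C (1.5), PUN1, FHN1 (1.10) and NCE102 (0.94). The core eisosome genes PIL1 (0.12) and LSP1 (0.41) did not pass, the list's median was 0.28, and with the covariate 3 were higher.

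Other genes in the upper ranks had few reads in wild type. SPG4, named for survival in stationary phase, had 0 to 2 reads per wild-type library (1.05, 0.545 and 0 RPKM) and 33.2, 29.9 and 9.07 RPKM in slt2. YPR145C-A, a small open reading frame of unknown function, had 1 to 4 reads in wild type (0.773, 1.20 and 2.36 RPKM) and 48.8, 34.1 and 35.5 RPKM in slt2, and it was already higher without the compound (1.98, adjusted p = 0.0312). Their fitted differences, 3.90 and 4.08, depend on the pseudocount. PUT1, the gene of proline oxidase (chrXII:425186-426616, plus strand), read 2.95, 4.18 and 2.83 RPKM against 43.1, 52.1 and 29.1 RPKM (3.27, 2.68 to 3.86, adjusted p = 4.48e-06), with an untreated difference of 0.38 (adjusted p = 0.392). PHM7 read 1.98 to 2.34 against 13.2 to 25.3 RPKM (2.73), PDC6, a minor pyruvate decarboxylase gene, 0.650 to 0.990 against 5.10 to 15.4 RPKM (2.63), YPT53, a Rab GTPase gene, 0.553 to 1.57 against 5.71 to 12.6 RPKM (2.44), RTC3 23.4 to 42.8 against 109 to 207 RPKM (2.42) and TMA10 5.62 to 16.6 against 54.0 to 95.6 RPKM (3.09, adjusted p = 0.0114, 0.363 with the rRNA share as a covariate).

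Sulfur assimilation and methionine genes were higher at 14 of 25 members with none lower (median 0.55). Both strains carry the MET17 deletion, so neither can fix sulfide and both need methionine from the medium. STR3, a cystathionine beta-lyase gene (chrVII:154615-156012, minus strand), read 4.20, 3.05 and 3.00 RPKM in wild type and 24.6, 22.9 and 18.4 RPKM in slt2 (2.38, adjusted p = 4.73e-06). MET6, the methionine synthase gene (chrV:339864-342167, minus strand), read 136, 144 and 118 RPKM against 380, 426 and 305 RPKM (1.46, adjusted p = 1.01e-05). MET14 (chrXI:438777-439385, minus strand) read 25.9, 37.9 and 27.1 RPKM against 93.1, 82.0 and 78.1 RPKM (1.47, adjusted p = 6.24e-05). MET6 and MET14 showed no such difference without the compound (−0.07 and −0.16). For 11 of the 25 genes the treated difference was larger than the untreated one, and none was smaller by that test. In untreated cells 1 member was higher (STR3) and 2 were lower, 1 of them MHT1, whose strain difference was −0.81 without (adjusted p = 0.0264) and 0.90 with the compound (adjusted p = 0.000696). MET28, a cofactor of Cbf1 (1.76), MET2 (1.14), MET3 (1.07), MET10 (0.99), MUP3 (0.99), SAM2 (0.89), MMP1 (0.79), MET5 (0.55), MET1 (0.50) and MUP1 (0.46) were the other higher members. With the rRNA share as a covariate 8 of the 25 were higher. The activator gene MET4 (−0.17) and the sulfate permease gene SUL1 (0.09) did not pass. The E-box CACGTG stood in 17 of the 25 windows and the Met31 or Met32 site in 11.

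Of 47 genes of other amino acid routes 10 were higher and none was lower (median 0.25), among them ARG1, ARG3, ARG4, ARG5,6 and CPA1 of arginine synthesis (0.55 to 1.31). ARO9, an aromatic aminotransferase gene (chrVIII:375709-377250, plus strand), read 37.9, 34.0 and 22.9 RPKM in wild type and 98.8, 106 and 94.1 RPKM in slt2 (1.66, adjusted p = 0.000112), against −0.27 without the compound, and it overlaps a further open reading frame. HIS4 (0.82), SER3 (0.64) and LYS2 (0.46) were higher as well, and the transcription factor gene GCN4 did not pass (0.20). That count was 2 with the rRNA share as a covariate and 3 to 13 when a library was left out. Genes of the unfolded protein response were lower at 6 of 17 with none higher (median −0.29): the endoplasmic reticulum chaperone gene KAR2 read 776, 867 and 662 RPKM against 441, 443 and 447 RPKM (−0.78, adjusted p = 0.000886), and SIL1 (−1.18), ERO1 (−0.98), JEM1 (−0.95), LHS1 (−0.70) and FPR2 (−0.62) followed. HAC1 (0.38) and IRE1 (0.01), the genes of its regulators, did not pass, and with the covariate 1 of the 17 was lower.

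**Figure D5:**
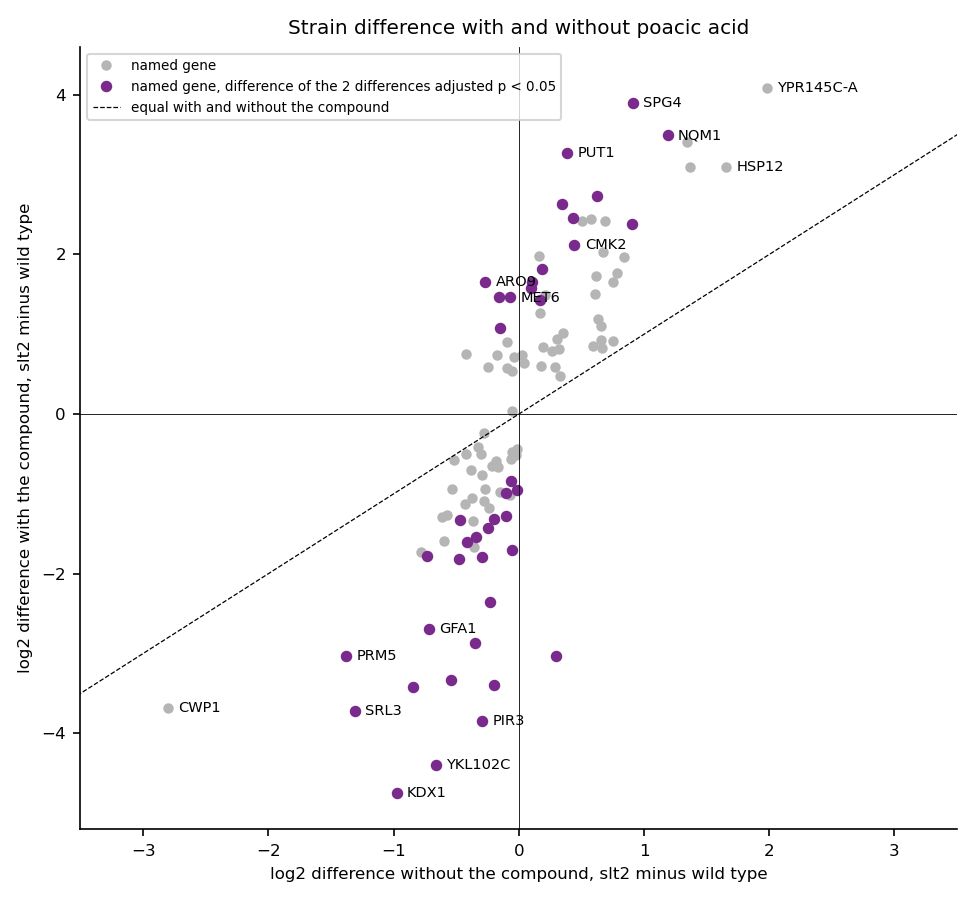
Log2 strain difference (slt2 minus wild type) without the compound (horizontal axis) against that with it (vertical axis) for the named genes other than SLT2, purple where the difference of the 2 was called. KDX1, PIR3 and YKL102C lie far below the dashed line of equal differences and PUT1, SPG4 and NQM1 far above it, while CWP1 lies near it.

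The remaining lists held few calls, and most of these moved with the setting. Over all tested genes 4.04% were called higher and 4.28% lower. The shares of ribosome biogenesis and proteasome genes called lower lay near the latter. Ribosomal protein genes had none among 137 (median −0.12), but 7 were lower without treated wild type replicate 3 and 37 with library weights, and the covariate turned the median to 0.02. Ribosome biogenesis genes were lower at 4 of 75 (UTP7, UTP23, UTP30 and RRP7, −0.72 to −0.47, median −0.27). That count was 15 without treated wild type replicate 3, and 0 with the covariate, with the 6 treated libraries alone and without slt2 replicate 1 or 2. Respiration genes were lower at 4 of 38 (ATP15, NDE1, CYC1 and QCR2, −1.26 to −0.66, median −0.10), and 1 of 33 proteasome genes was (RPT5, −0.41, median −0.20). Respiration genes stood at 1 lower and 1 higher with the covariate, which turned their median to 0.01, and at 8 lower and 1 higher without treated wild type replicate 3, where 6 proteasome genes were lower. RPT5 lost its call with the covariate (0.478). Of 24 tested mating genes FAR1, which arrests the cycle in response to pheromone, read 78.4, 75.8 and 51.5 against 20.2, 19.7 and 25.5 RPKM (−1.60, adjusted p = 3.86e-05), STE6 was lower (−0.50), PRM4 was higher (0.94), and the median was −0.29. Without treated wild type replicate 3 the lower members numbered 9, while with the covariate 1 was lower, none was higher and the median turned to 0.11. STE6 lost its call in 10 alternatives (0.587 with the covariate) and PRM4 in 4 (0.0944 with it), and FAR1 in none. FIG1 and PRM6 did not reach the level for testing, nor did SFC1 of the glucose-repressed list. Hexose transporter genes were higher at 2 of 14 (HXT5, 1.65, and HXT2, 1.08, median 0.24) and glucose-repressed genes at 2 of 15 (YAT1, 0.92, and ICL1, 0.59, median 0.23). Iron uptake genes were higher at 4 of 18 (ENB1, HMX1, FRE4 and FET3, 0.56 to 1.51, median 0.62), and the wall mannoprotein gene FIT2 spread too widely to pass (18.2, 45.2 and 223 against 276, 318 and 179 RPKM, 2.11, adjusted p = 0.175). Of 16 phosphate genes PHO89 (66.7, 103 and 132 against 732, 858 and 226 RPKM, 2.42, adjusted p = 0.0443) and PHO4 (0.83) were higher (median 0.19), and PHO89 lost its call without single libraries (up to 0.158). Drug resistance genes were higher at 2 of 15 (PDR10, 0.74, and ATR1, 0.54, median 0.17) and ergosterol genes at 4 of 25 (ERG3, UPC2, ERG25 and ERG2, 0.44 to 0.86, median 0.06). With the rRNA share as a covariate none of the members of these last 6 lists was called, and the median of the hexose transporters turned to −0.02. When a library was left out, 1 to 3 hexose transporter, 0 to 4 glucose-repressed, 1 to 7 iron uptake, 0 to 2 phosphate, 0 to 2 drug resistance and 2 to 5 ergosterol genes were higher, and 2 hexose transporter genes were lower without wild type replicate 1. Without the compound the medians were −0.16 for ribosomal protein, −0.21 for ribosome biogenesis, −0.15 for respiration, −0.21 for proteasome and −0.50 for mating genes. They were 0.11 for hexose transporter, 0.25 for glucose-repressed, 0.52 for iron uptake, −0.31 for phosphate, 0.02 for drug resistance and −0.16 for ergosterol genes. Several, such as those of iron uptake and proteasome genes, lay near the treated medians.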

How the data were processed

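RNA-seq was done on 12 libraries made from rRNA-depleted RNA by a directional kit, with inserts of 300 to 450 bp, per the labels. Cultures started at OD 0.2 and received the compound at OD 0.5. An exposure of 1 h stands under treatment in the labels, and 2 h under growth. The authors deposited RPKM values with decimal commas, per the file headers, and no score or other scale was used. The build was R64, per the submitters' processing notes. How reads were aligned and counted, by strand or not, is not given in the sources used here. Gene coordinates and upstream bases came from the RefSeq R64 assembly, where 6036 of 6048 matched genes had the same ends. The values were whole multiples of 1 read for 99.6 to 99.8% of low values, which gave the read totals. The tolerance was 1% of 1 read times the square root of the reads, up to 200 reads.

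Values were fitted as log2(RPKM + 1) with limma 3.58.1 (R 4.3.3), with an intensity trend, robust variances and 1 mean per group over all 12 libraries, and p-values were adjusted over 6139 genes (threshold 0.05). The fit was tested on simulated data with known changes. These had independent libraries and no rRNA shift between strains, so that test does not bear on either. The comparison, its members and the 35 gene lists were chosen with earlier results of these data known, and SLT2 was left out of the lists. Lists were described by counts and medians, without a set test, and some genes stand in several lists. Named genes were the 12 largest differences in each direction (adjusted p under 0.05, at least 2-fold, no overlap, at least 5 RPKM on average in the group with more, without SLT2, auxotrophy, Ty and non-coding genes), up to 3 members of each list with the smallest adjusted p, and SLT2, LEU2, MET17, URA3, HIS3, CRH1, UTR2, CRR1 and GAS1. Other list members were named after their values were seen, and some members counted in the lists are not reported here by name. Replicate numbers did not pair the strains (correlations of deviations −0.065, 0.108 and −0.174). The alternatives were other pseudocounts, filters, scalings, variances, weights, samples, blocks, the rRNA share as a covariate and each treated library left out. Depth limits precision through counting error, and the pseudocount and the filter weigh most on genes with few reads. The p-values rest on the spread within groups, pooled over all 12 libraries and drawn toward that of other genes. They say nothing of a spread beyond these samples.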

Additional observations from a re-analysis of the deposited data

Results flagged for a closer look

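The strain difference with the compound differed from that without it, by the test of the difference itself (limma, adjusted p under 0.05 over 6139 genes), in 42 named genes. The values below are the log2 strain difference (slt2 minus wild type) with the compound minus that without it. The most negative values were those of KDX1 (−3.77), YKL102C (−3.74), PIR3 (−3.55), YNL057W (−3.33), YPL088W (−3.20), PST1 (−2.79), CRG1 (−2.58), YNL058C (−2.52), SRL3 (−2.41), HSP150 (−2.12), GFA1 (−1.98), PRM5 (−1.65), PIR1 (−1.64) and SSK22 (−1.50). SLT2 itself was among them (−2.01), with 0 or 1 reads in each slt2 library, so that its value follows its level in wild type, which was higher with the compound. Smaller negative values were those of PCL9 (−1.34), PCM1 (−1.20), CRH1 (−1.19), RLM1 (−1.18), MSG5 (−1.18), HO (−1.12), EXG1 (−1.04), JEM1 (−0.94), SIC1 (−0.89), CHS3 (−0.85) and NDE1 (−0.77).

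Positive values, a strain difference that was more toward slt2 with the compound, were those of HXT2 (1.23), PUN1 (1.26), STR3 (1.47), CTT1 (1.48), MET6 (1.53), ALD3 (1.55), MET14 (1.62), RCN1 (1.63), CMK2 (1.68), ARO9 (1.92), ENA1 (2.02), PHM7 (2.11), PDC6 (2.29), NQM1 (2.31), PUT1 (2.89) and SPG4 (2.99). SPG4 and PDC6 had few reads in wild type, ENA1 has tandem copies, YNL057W overlaps YNL058C, and ARO9 overlaps a further open reading frame. The cause of these differences was not tested.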

How the results depend on the processing

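None of the 108 named calls changed direction under any alternative, but the medians of 10 of the 35 lists turned sign under some alternative, 6 of them with the rRNA share as a covariate: the sensor and Rho1 module (−0.05 to 0.14), ribosomal proteins (−0.12 to 0.02), mating (−0.29 to 0.11), mitotic genes (−0.44 to 0.04), respiration (−0.10 to 0.01) and hexose transporters (0.24 to −0.02). The balance of calls turned under median-of-ratios scaling, from 248 higher and 263 lower to 322 and 229. Of the 108 named calls, 80 were kept in every fit without a library, 66 in every other alternative (87 leaving aside the rRNA covariate) and 65 in all of them. The treated strain difference held 511 genes (248 higher, 263 lower), the untreated one 108, the difference of the strain differences 107, and the lists 157 called members. Library weights gave 1399 (668 higher, 731 lower), 1160, 295 and 322. The rRNA share as a covariate gave 183 (79 higher, 104 lower), 1 untreated and 73 list members. The 6 treated libraries alone gave 333, of which 161 were lower, and a fit with no trend and no robust variances gave 33 untreated. The replicate block by number, which does not pair the strains, gave 480 (240 in each direction). A replicate block by culture, used because each sample was taken without and with the compound, gave 523, but 199 for the difference of the strain differences. Without 1 library the counts ranged from 329 to 880 (139 to 366 higher, 190 to 514 lower), from 60 to 609 untreated, from 67 to 163 for the difference and from 103 to 212 list members. The highest treated, untreated and list counts came without treated wild type replicate 3, the lowest treated count without slt2 replicate 1 and the lowest of the other 3 without slt2 replicate 2. Without treated wild type replicate 2 the untreated count was 499 and the difference 163. That scaling gave 551 calls (58.4% higher), and moved the median of all genes from −0.07 to 0.00322. The cause was not tested for any of these. Fewer libraries are in the fits that leave some out, and genes with few reads in a strain are limited by depth.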

Other observations

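Some genes of amino acid uptake and breakdown, picked here after their values were seen and not a list or a tested group, were higher in treated slt2 beside PUT1 and ARO9, while the permease genes TAT1 (−0.51, adjusted p = 0.0128, limma) and BAP3 (−0.39, adjusted p = 0.0424) were lower. ARO10, the gene of a decarboxylase of the route on which Aro9 acts, differed by 2.37 on the log2 scale (adjusted p = 1.1e-05, limma), the proline permease gene PUT4 by 2.00 (adjusted p = 1.8e-05) and the general amino acid permease gene GAP1 by 1.93 (adjusted p = 0.00016). PUT4 was also higher without the compound (0.90). ALD4, a mitochondrial aldehyde dehydrogenase gene, differed by 2.40.

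Genes lower in slt2 and outside every list used included AFR1, which shapes mating projections (−2.20), YPK2, a kinase gene (−1.88), and FLC2, a gene of a putative calcium channel and heme transporter (−1.60). These were also picked after their values were seen.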
